A study of Mus musculus with 9 samples.

Results

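The 9 genes described here are Desert hedgehog (Dhh) and 8 genes that receive or relay its signal: Ptch1, Hhip, Gli1, Gli2, Gli3, Smo, Gas1 and Boc. They were chosen by name and matched from symbol to mouse Ensembl gene ID. All 9 were among the 15300 genes of the deposited comparisons. Expression was measured by RNA sequencing of gonads taken from C57BL/6 mouse fetuses at E13.5, in mid-gestation, and freed of the mesonephros. Control testes (XY-WT, genotype XY Sox9flox/flox wildtype) and control ovaries (XX-WT, genotype XX Sox9flox/flox wildtype) carried the floxed Sox9 alleles. The Sox9-deleted testes (XY-KO, genotype XY AMH-Cre; Sox9flox/flox) carried the same alleles and Cre recombinase. Each group had 3 samples, 9 in all. The Cre is driven by the promoter of the anti-Müllerian hormone gene, which is active in Sertoli cells and only once they have begun to differentiate, so other cells of the gonad should keep the gene. Pooling of fetuses is neither stated nor denied in the labels, so errors and p-values describe the spread between samples, which may be technical.

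Hedgehog proteins are secreted signals that bind the receptor Patched on neighbouring cells. Unbound Patched holds the membrane protein Smoothened inactive. Once hedgehog is bound, Smoothened is released and the GLI transcription factors switch on their targets, which include the genes for Patched itself, for the hedgehog-binding protein HHIP and for GLI1. In the fetal testis the ligand is Desert hedgehog from Sertoli cells, and the receiving cells are those outside the cords, among them the progenitors of fetal Leydig cells and of peritubular myoid cells.

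Of the 9 genes, Dhh, Hhip and Ptch1 fell in Sox9-deleted testes, by 2.54-fold, 2.39-fold and 1.53-fold, and none rose. All 3 stayed above the ovary, where Dhh and Gli1 were under 1 CPM (counts scaled so that libraries share the same sum). Gli1, the other classical target of the pathway, did not pass the test in Sox9-deleted testes, nor did Gli2, Gli3, Smo, Gas1 or Boc. Fold changes, mean expression and adjusted p-values below are from the authors' deposited table of each comparison, made with limma. Standard errors (SE), 95% intervals and group levels were derived from those tables. A gene is called changed at an adjusted p under 0.05, adjusted over all genes.

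The promoters of the 3 genes that fell together are shown, since a motif they share could be read from them directly. Each is the 250 bases before the RefSeq start on GRCm38.p6, written 5′ to 3′ on the strand of the gene. Capitals mark the GC box GGGCGG or its reverse complement CCGCCC. The Dhh window is chr15:98898541-98898790, the Ptch1 window chr13:63565736-63565985 and the Hhip window chr8:80058009-80058258, all on the minus strand. The RefSeq start of Ptch1 lies inside the GENCODE gene, downstream of its outermost start.
Dhh: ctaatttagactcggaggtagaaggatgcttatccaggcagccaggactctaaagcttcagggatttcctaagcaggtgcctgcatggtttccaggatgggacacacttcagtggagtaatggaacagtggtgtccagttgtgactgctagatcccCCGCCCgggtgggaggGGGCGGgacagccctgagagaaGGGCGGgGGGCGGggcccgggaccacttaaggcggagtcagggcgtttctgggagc
Ptch1: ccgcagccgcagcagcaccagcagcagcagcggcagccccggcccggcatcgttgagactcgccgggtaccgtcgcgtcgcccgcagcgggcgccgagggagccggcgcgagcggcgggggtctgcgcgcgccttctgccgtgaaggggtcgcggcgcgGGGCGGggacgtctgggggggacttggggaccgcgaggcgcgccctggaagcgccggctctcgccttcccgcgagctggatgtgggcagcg
Hhip: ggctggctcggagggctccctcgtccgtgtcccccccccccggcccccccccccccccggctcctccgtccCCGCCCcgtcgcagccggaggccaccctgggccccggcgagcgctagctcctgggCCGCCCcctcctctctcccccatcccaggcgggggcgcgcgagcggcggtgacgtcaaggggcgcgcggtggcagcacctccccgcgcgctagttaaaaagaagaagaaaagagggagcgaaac

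Windows were found for 7 of the 9 genes. The Dhh window holds 4 GC boxes, those of Hhip and Ptch1 hold 2 and 1, and 6 of the 7 windows hold at least 1, against 32.7% of all 32851 promoters. The Ptch1 and Hhip windows are GC-rich, with 78.4% and 76.0% G or C and 41 and 28 CpG dinucleotides, while Dhh has 59.6% and 9. The median over all promoters was 52.4% and 6 CpG. The GLI sequence TGGGTGGTC, read on both strands, is in none of the 7 windows and in 0.225% of all promoters. The SOX core AACAAT, also read on both strands, is in none of the 7 and in 9.42% of all promoters, and the TATA sequence TATAAA is in none of the 7 and in 12.4%. None of these 4 motifs contains another. These are matches of letters in a short window and say nothing of factors bound there or elsewhere.

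The Sox9 deletion was visible in the targeted gene. Sox9 fell by 2.76 on the log2 scale in XY-KO in the authors' deposited table (adjusted p = 8.93e-07, SE 0.172), from a derived level of 89.4 CPM in XY-WT to 13.2 CPM. The ovary stood at 4.02 CPM. Summed pre-granulosa markers were at 48.9 CPM in XY-WT, 44.9 CPM in XY-KO and 419 CPM in XX-WT, so the labelled tissues matched their markers. Over all genes, that comparison called 240 lower and 107 higher, or 143 and 120 after removing the dependence of fold changes on GC content and transcript length. Values of single samples were not used here and the depth of each sample is unknown, so each group is given as 1 level with its interval.

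Dhh (ENSMUSG00000023000, chromosome 15, 98891152 to 98898540, minus strand, GRCm38) encodes the ligand. Its derived level was 28.5 CPM in XY-WT (95% interval 24.0 to 33.7), 11.2 CPM in XY-KO (9.09 to 13.8) and 0.231 CPM in XX-WT (0.101 to 0.530). The 3 intervals do not overlap, with the control testis highest and the ovary lowest. In the authors' deposited table the XY-KO change was -1.34 in log2 (adjusted p = 0.000733, SE 0.183), which is 2.54-fold lower (95% interval 1.94 to 3.33). The ovary was lower than the control testis, at -6.95 (adjusted p = 3.54e-07, SE 0.575) by the authors' deposited table. That value rests on an ovary level so low that the offset added before taking logs matters, so only its log2 value is given. Sox9-deleted testis was higher than ovary by 5.60 (adjusted p = 5.11e-06, SE 0.581) by the authors' deposited table.

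Dhh overlaps Rhebl1 on the same strand and an antisense transcript on the other. Rhebl1 was at 0.14 in log2 CPM in XY-WT, far below the 4.83 of Dhh. Its change in the authors' deposited table was 0.17 (adjusted p = 0.853) in XY-KO and -0.64 (adjusted p = 0.308) in XX-WT. How reads in the shared stretch were assigned is not given in the sources used here.

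**Figure D1:**
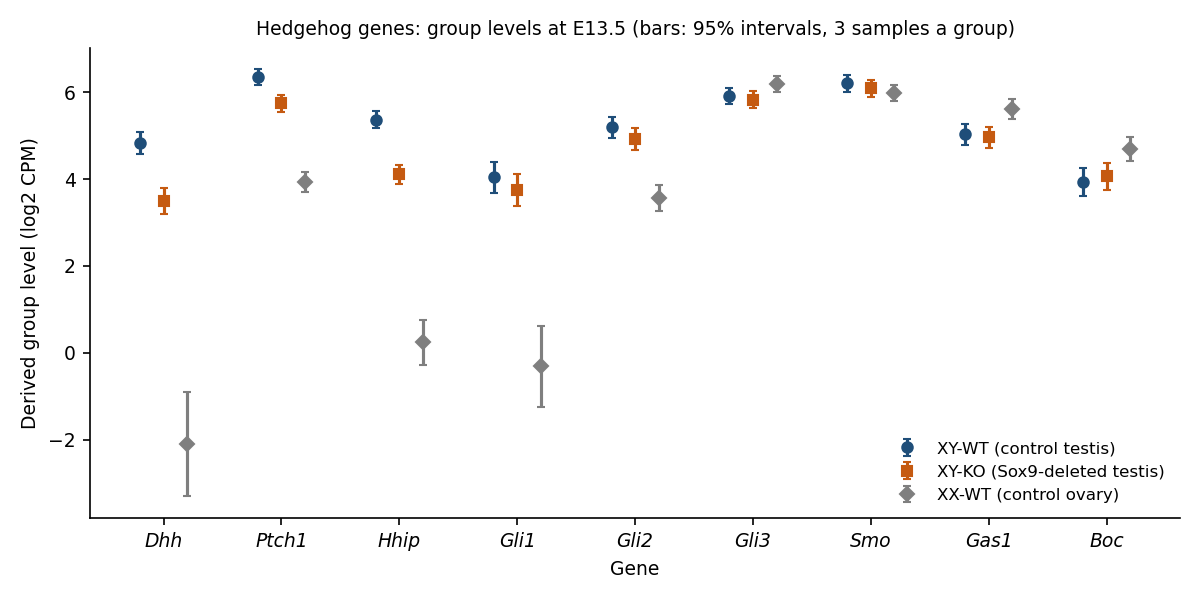
Derived level of each of the 9 hedgehog genes (y axis, log2 CPM) in the 3 groups, 1 point a group of 3 samples, with 95% intervals as bars. Dhh and Hhip have separate intervals in all 3 groups, while the XY-WT and XY-KO points of Gli1, Gli2, Gli3, Smo, Gas1 and Boc have overlapping ones.

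Hhip and Ptch1, the hedgehog-binding proteins on receiving cells that are themselves targets of the pathway, were lower in Sox9-deleted testes together with the ligand. Hhip (ENSMUSG00000064325, chromosome 8, 79965851 to 80058006) binds hedgehog at the cell surface and limits its reach. Its derived level was 41.4 CPM in XY-WT (95% interval 36.3 to 47.1), 17.3 CPM in XY-KO (14.9 to 20.1) and 1.18 CPM in XX-WT (0.821 to 1.70), again 3 separate intervals. In the authors' deposited table it fell by 1.26 on the log2 scale in XY-KO (adjusted p = 9.06e-05, SE 0.135), or 2.39-fold (95% interval 1.96 to 2.92). Hhip also holds Gm27820, a small non-coding gene on the other strand, which the authors' deposited table put at -1.40 (adjusted p = 0.0541) in XY-KO and -5.58 (adjusted p = 1.48e-05) in the ovary. Its part in the Hhip values was not tested. By the moderated t statistic Hhip was the 17th most negative of the 15300 genes, and Dhh was 43rd. The ovary was lower than the control testis, at -5.13 (adjusted p = 2.61e-09, SE 0.263) by the authors' deposited table, and the Sox9-deleted testis stood 3.87 above the ovary (adjusted p = 8.32e-08).

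Ptch1 (ENSMUSG00000021466, chromosome 13, 63508328 to 63573598) encodes the receptor. It was at 81.8 CPM in XY-WT (95% interval 72.2 to 92.8), 53.5 CPM in XY-KO (46.9 to 61.1) and 15.2 CPM in XX-WT (13.0 to 17.8). The order of the groups was that of Dhh and Hhip, with no overlap, over a smaller range. In the authors' deposited table it fell by 0.61 on the log2 scale in XY-KO (adjusted p = 0.0147, SE 0.123), which is 1.53-fold (95% interval 1.27 to 1.83). This call is lost at a threshold of 0.01, when a 2-fold change is also required, or with Bonferroni adjustment. The ovary was 5.38-fold lower than the control testis (95% interval 4.40 to 6.58; -2.43 in the authors' deposited table, adjusted p = 6.12e-09), and the Sox9-deleted testis was 1.82 above the ovary (adjusted p = 2.15e-07).

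The interval of the Ptch1 fall ends at 1.83-fold and that of the Hhip fall begins at 1.96-fold. The difference between the 2 falls was not tested, since the tables used here do not hold how the genes vary together across samples. Because these are whole gonads, fewer cells of a type and less RNA per cell cannot be told apart, for the ligand as for its targets.

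Of the 3 GLI transcription factors, Gli1 and Gli2 were lower in the ovary than in either kind of testis, and none of the 3 passed the test in Sox9-deleted testes. Gli1 (ENSMUSG00000025407, chromosome 10, 127329882 to 127341974) is an activator made in response to the signal. Its derived level in log2 CPM was 4.04 in XY-WT (SE 0.165), 3.75 in XY-KO (SE 0.171) and -0.31 in XX-WT (SE 0.440), and in the ovary that is 0.809 CPM (95% interval 0.423 to 1.55). The 2 kinds of testis overlap and the ovary lies apart. The XY-KO change in the authors' deposited table was -0.29 (adjusted p = 0.547, SE 0.238), with a 95% interval from -0.80 to 0.22. A fall of up to 1.74-fold therefore lies within the interval, and a fall as large as that of Hhip does not. Against the control testis the ovary was at -4.35 (adjusted p = 5.88e-06, SE 0.470) by the authors' deposited table, again a log2 value that depends on the offset. Sox9-deleted testis stood 4.06 above the ovary (adjusted p = 1.65e-05) by the authors' deposited table.

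Gli1 overlaps Arhgap9, a gene on the other strand at 1.45 in log2 CPM in XY-WT, against 4.04 for Gli1. Arhgap9 was also lower in the ovary, at -3.49 (adjusted p = 0.00371) by the authors' deposited table, and at 0.39 (adjusted p = 0.653) in XY-KO. Its part in the Gli1 values was not tested.

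Gli2 (chromosome 1, 118834132 to 119053619), the main activator that carries the first response, was at 36.6 CPM in XY-WT (95% interval 30.9 to 43.4), 30.4 CPM in XY-KO (25.4 to 36.2) and 11.8 CPM in XX-WT (9.56 to 14.5). Its XY-KO change in the authors' deposited table was -0.27 (adjusted p = 0.402, SE 0.167), and its ovary change -1.64 (adjusted p = 8.33e-06, SE 0.183). Sox9-deleted testis was above the ovary by 1.36 (adjusted p = 7.58e-05) by the authors' deposited table. The 2 testis intervals overlap and the ovary is 3.11-fold below the control testis (95% interval 2.37 to 4.07). Gli3 (chromosome 13, 15463235 to 15730026), which acts mostly as a repressor without the signal, was at 60.2 CPM in XY-WT, 57.0 CPM in XY-KO and 73.2 CPM in XX-WT, with overlapping intervals. In the authors' deposited table its change was -0.08 (adjusted p = 0.780) in XY-KO and 0.28 (adjusted p = 0.111) in the ovary. Sox9-deleted testis against ovary gave -0.36 for Gli3 (adjusted p = 0.0549) by the authors' deposited table, and passed once the GC and length dependence was removed (-0.38, adjusted p = 0.0427).

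Smo (chromosome 6, 29735503 to 29761365) encodes Smoothened, the relay that every hedgehog signal passes through. It was the most even of the 9 across groups, at 73.4 CPM in XY-WT (95% interval 64.4 to 83.6), 67.9 CPM in XY-KO (59.4 to 77.6) and 63.3 CPM in XX-WT (55.5 to 72.2). None of its changes passed: the authors' deposited tables gave -0.11 (adjusted p = 0.677) for XY-KO against XY-WT, -0.21 (adjusted p = 0.244) for the ovary against XY-WT and 0.10 (adjusted p = 0.659) for XY-KO against the ovary. The 95% intervals of these changes run from -0.48 to 0.37, so a change of Smo of 2-fold lies outside each of them.

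Gas1 and Boc encode cell-surface co-receptors that help Patched bind hedgehog, and both were higher in the ovary than in either testis. Gas1 (chromosome 13, 60174405 to 60177365) was at 32.8 CPM in XY-WT (95% interval 27.7 to 38.8), 31.0 CPM in XY-KO (26.1 to 36.8) and 49.0 CPM in XX-WT (41.8 to 57.4). The ovary was above the control testis by 0.58 (adjusted p = 0.0139, SE 0.157) by the authors' deposited table, and Sox9-deleted testis was below the ovary, at -0.66 (adjusted p = 0.00787). Boc (chromosome 16, 44485049 to 44558897) was at 15.2 CPM in XY-WT, 16.7 CPM in XY-KO and 26.0 CPM in XX-WT (21.5 to 31.4) and the testis intervals ended at 19.0 and 20.6 CPM. Its ovary change was 0.77 (adjusted p = 0.00968, SE 0.197) by the authors' deposited table, and its difference of XY-KO from the ovary -0.64 (adjusted p = 0.0300). For both genes the ovary interval lies above both testis intervals, which overlap each other, and all 4 differences are under 2-fold. All 4 calls are lost with Bonferroni adjustment, and those of Gas1 against XY-WT and of Boc in XY-KO against XX-WT also at a threshold of 0.01. Their XY-KO changes in the authors' deposited table were -0.08 (adjusted p = 0.837) for Gas1 and 0.13 (adjusted p = 0.784) for Boc.

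**Figure D2:**
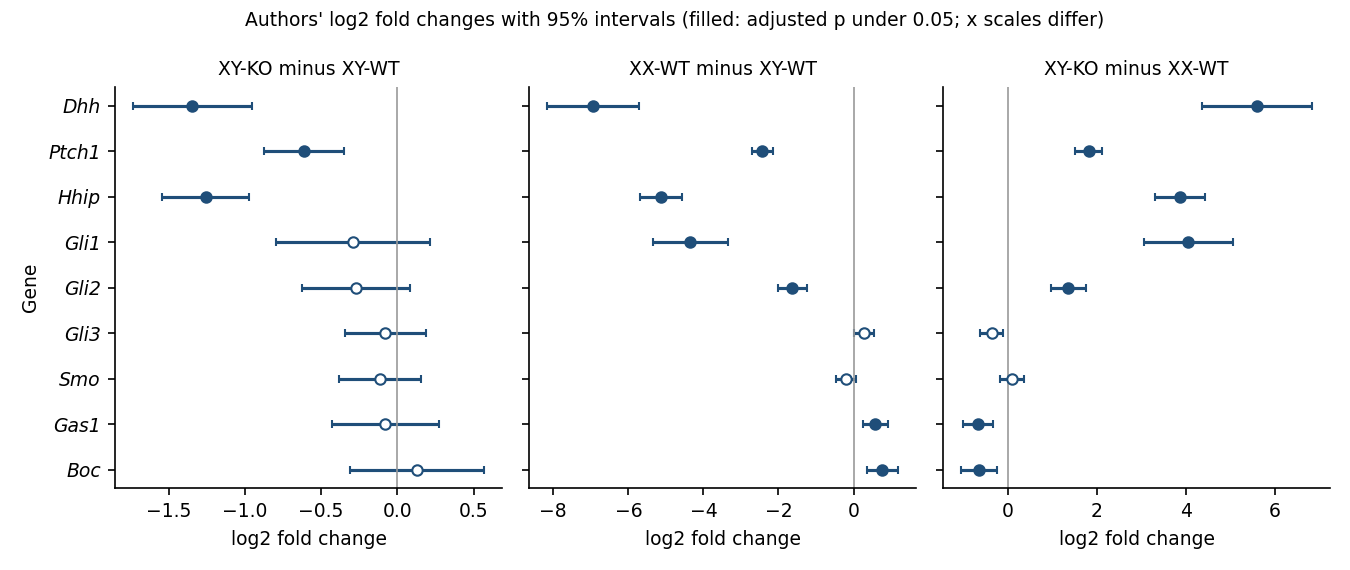
Log2 fold changes of the 9 genes from the authors' deposited tables (x axis, a separate scale in each panel) with 95% intervals, filled where the adjusted p is under 0.05. Dhh, Ptch1 and Hhip are filled to the left of 0 in the left panel, and Gas1 and Boc lie to the right of 0 in the middle panel, opposite to Dhh, Ptch1, Hhip, Gli1 and Gli2.

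In XY-KO against XY-WT, 3 of the 9 genes were lower and 0 higher by limma (3 had an unadjusted p under 0.05), where 1.57% of all genes were lower and 0.699% higher. The median log2 change was -0.27 over the 9 genes and -0.01 over all genes. Over the 9 it was -0.07 once the GC and length dependence was removed, with the same 3 genes called. That step also moved the uncalled changes of Gli1, Smo and Gas1 in XY-KO, to 0.00, 0.14 and 0.22. In XX-WT against XY-WT, 5 were lower and 2 higher, against 12.4% and 10.9% of all genes. In XY-KO against XX-WT, 5 were higher and 2 lower, against 9.16% and 9.11%. The first 2 comparisons share the XY-WT samples and the last 2 share the XX-WT samples, so the counts are not independent of each other.

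Per kilobase of exon, which allows genes to be set side by side, the derived XY-WT level in log2 CPM was 3.71 for Smo and 3.47 for Gas1. Below them came Dhh at 2.69, Gli3 at 2.65, Ptch1 at 2.53, Gli2 at 2.41, Hhip at 2.19, Boc at 1.78 and Gli1 at 1.72. In XX-WT on the same scale Gas1 led at 4.05 and Dhh was lowest at -4.25. Group SEs in XY-WT ran from 0.085 to 0.165, and the 95% intervals of neighbours in this order overlapped, except those of Gas1 and Dhh. These levels assume that the mean expression weights the groups equally. With weights taken from the standard errors, the 3 levels of Dhh would all be 2.07 lower and those of Hhip and Gli1 1.29 and 1.12 lower. Differences between groups would not change. The order of genes in XY-WT would, with Dhh and Hhip moving below Boc.

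Whether the Sox9-deleted testis lay nearer the testis or the ovary control was measured as its distance from the midpoint of the 2 controls on the log2 scale, tested on the same fit. On that scale Dhh, Ptch1, Hhip, Gli1 and Gli2 lay on the testis side, 5 of the 9 genes, and the other 4 could not be placed. The side depends on the scale for Dhh and Hhip: halfway between the controls in linear CPM is 14.4 for Dhh and 21.3 for Hhip, and their XY-KO levels of 11.2 and 17.3 CPM lay below these, on the ovary side, without a test. Ptch1, Gli1 and Gli2 were on the testis side on both scales. Over all genes 4.82% lay above the midpoint and 2.93% below it, whichever control was higher. These are therefore not the shares of genes on the testis and ovary sides. Dhh was 2.13 above the midpoint (adjusted p = 0.000625, SE 0.321), where the control testis stands 3.47 above it, and both values carry the offset dependence of its ovary level. Gli1 was 1.88 above (adjusted p = 0.000788, SE 0.291), Hhip 1.31 (adjusted p = 0.000142, SE 0.166), Ptch1 0.60 (adjusted p = 0.00333, SE 0.112) and Gli2 0.55 (adjusted p = 0.0377, SE 0.151). Sox9 itself was -0.53 from the midpoint (adjusted p = 0.0848, SE 0.176), on neither side by this test. The genes not placed were Gas1 (-0.37, adjusted p = 0.132), Boc (-0.26, adjusted p = 0.417), Gli3 (-0.22, adjusted p = 0.249) and Smo (-0.01, adjusted p = 0.982).

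**Figure D3:**
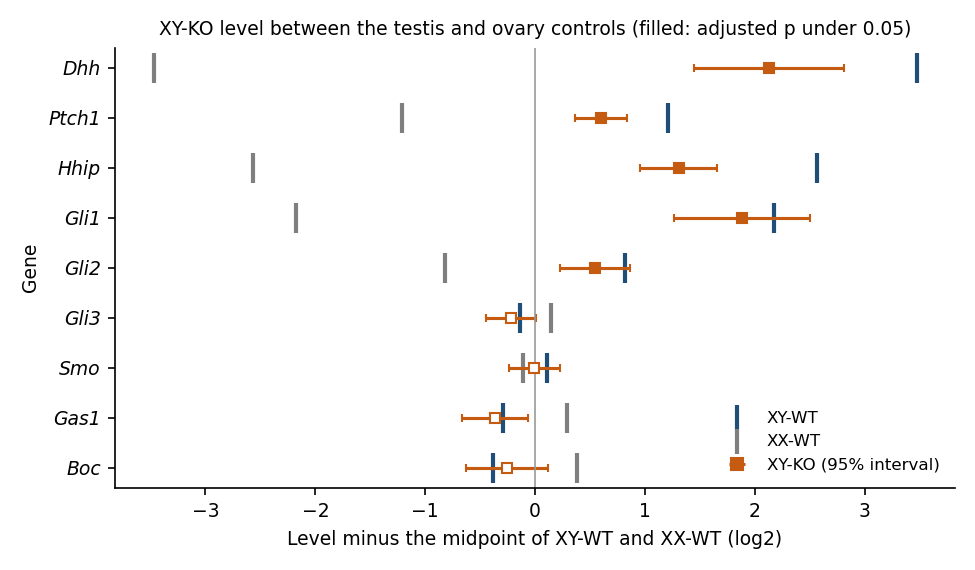
Level of each gene in XY-KO (squares with 95% intervals, filled where the adjusted p is under 0.05) relative to the midpoint of the controls, with the XY-WT and XX-WT levels as ticks (x axis, log2). The squares of Dhh, Ptch1, Hhip, Gli1 and Gli2 lie between 0 and the XY-WT tick, those of Dhh, Ptch1 and Hhip clear of it.

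Beyond these 9, 48 of 53 listed genes of hedgehog release, reception, relay and response were measured. None was called in XY-KO against XY-WT by limma, where 1.57% of all genes were lower and 0.699% higher. Of the 48, 11 had an unadjusted p under 0.05, where 2899 of all 15300 genes had one. The median log2 change of the 48 was 0.05. Adjusting over the 3 comparisons together called 2 genes of the list in XY-KO, 1 lower and 1 higher. That setting called 547 of all 15300 genes lower and 375 higher. In XX-WT against XY-WT, 10 of the 48 were higher and 7 lower, where 10.9% and 12.4% of all genes were.

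Among the ligands and the genes that release them, Shh, which encodes Sonic hedgehog, was higher in both kinds of testis than in the ovary, at a far lower level than Dhh. It was at 3.27 CPM in XY-WT (95% interval 2.37 to 4.52), 2.37 CPM in XY-KO (1.66 to 3.37) and 0.0759 CPM in XX-WT (0.0259 to 0.223). Per kilobase of exon its XY-WT level was 0.20 in log2 CPM, against 2.69 for Dhh. The authors' deposited table gave -0.47 (adjusted p = 0.461, SE 0.324) in XY-KO and -5.43 (adjusted p = 7.70e-05, SE 0.761) in the ovary, the latter again dependent on the offset. Shh overlaps 2 annotated non-coding genes on the other strand, and its reads cannot be assigned by strand here. The secreted helpers of ligand release went both ways in the ovary: in the authors' deposited table Scube1 was at -1.04 (adjusted p = 0.000160), while Scube3 was at 1.27 (adjusted p = 3.94e-05) and the ligand exporter gene Disp1 at 0.60 (adjusted p = 0.0143).

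Of 7 other receptors and co-receptors, 3 were lower and 1 higher in the ovary, where 12.4% and 10.9% of all genes were. The glypicans Gpc3, at -1.45 (adjusted p = 3.47e-05), and Gpc6, at -0.70 (adjusted p = 0.00144), were among the lower ones in the authors' deposited table. Cdon, the close relative of Boc, did not pass in the ovary (0.15, adjusted p = 0.368) by the authors' deposited table. None of 16 genes that relay the signal between Smoothened and GLI, among them Sufu and Kif7, was called in any of the 3 comparisons by limma, though Stk36 was called in XX-WT against XY-WT once the GC and length dependence was removed. Of all genes 1.57% were lower and 0.699% higher in XY-KO against XY-WT, and 12.4% and 10.9% in XX-WT against XY-WT. In XY-KO against XX-WT 9.11% were lower and 9.16% higher. Unadjusted p-values were under 0.05 for 2 of the 16 in XY-KO against XY-WT, for 4 in XX-WT against XY-WT and for 1 in XY-KO against XX-WT. Of all 15300 genes 2899, 5413 and 4513 had one in these 3 comparisons. Of 10 primary cilium genes, the organelle in which the relay works, 3 were higher and 0 lower in the ovary, against 10.9% and 12.4%. Rpgrip1l led them at 0.55 (adjusted p = 0.00520) by the authors' deposited table. All 10 had a change above 0 in XY-KO, where 7399 of all 15300 genes did. The 10 ran from 0.04 to 0.51 with a median of 0.21 (0.23 once the GC and length dependence was removed). None of the 10 was called by limma, with 4 at an unadjusted p under 0.05.

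Genes known as GLI targets in other tissues did not move as 1 group. In the ovary 2 of 9 were lower and 3 higher (12.4% and 10.9% of all genes were): the authors' deposited table gave -3.53 for Hsd11b2 (adjusted p = 4.23e-08), which inactivates glucocorticoids, 1.11 for the cell cycle kinase gene Cdk6 (adjusted p = 4.25e-05) and 0.71 for Mycn (adjusted p = 0.00103). In XY-KO the authors' deposited table gave Hsd11b2 -0.42 (adjusted p = 0.188), Cdk6 0.46 (adjusted p = 0.132) and Mycn -0.35 (adjusted p = 0.189). Against the ovary, 5 of the 48 genes were higher and 7 lower in XY-KO, shares near the 9.16% and 9.11% of all genes. In the authors' deposited table those with the smallest adjusted p were Hsd11b2 (3.11), Gpc3 (1.32), Shh (4.96), Scube1 (0.96) and Gpc6 (0.69) on the higher side. Scube3 (-1.34), Mycn (-1.06), Cdk6 (-0.66), Disp1 (-0.66) and the co-receptor gene Lrp2 (-1.24) led the lower side by the authors' deposited table.

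**Figure D4:**
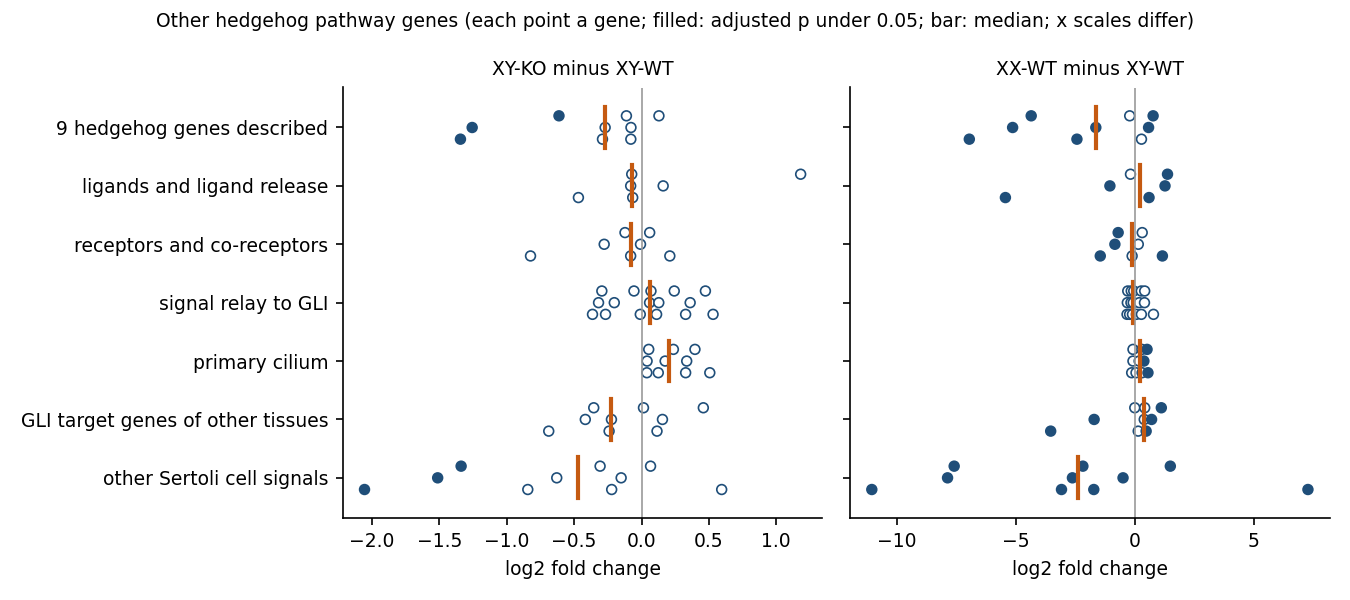
Log2 fold changes from the authors' deposited tables (x axis) of the 9 genes, of 5 groups of other hedgehog pathway genes and of 10 other Sertoli cell signals, 1 point a gene, filled where the adjusted p is under 0.05, with the median of each group as a bar. In the left panel only the 9 genes and the Sertoli cell signals hold filled points, 3 each, and the 5 other groups hold none. In that comparison 1.57% of all genes were lower and 0.699% higher.

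Dhh was set beside 10 other secreted signals listed as made by Sertoli cells. In XY-KO 3 of the 10 fell and none rose: the authors' deposited table gave -2.06 for Amh, which makes the Müllerian ducts regress, -1.51 for the prostaglandin D synthase gene Ptgds and -1.34 for Gdnf, a growth factor for germ cells. The median of the 10 was -0.47, and 1.57% of all genes fell. The authors' deposited table gave the remaining 7, among them Fgf9 (-0.84, adjusted p = 0.131), Pdgfa (-0.63, adjusted p = 0.0658), Inhbb (-0.15, adjusted p = 0.598) and Cxcl12 (0.07, adjusted p = 0.890), no call. In the ovary 8 of the 10 were lower and 2 higher, the latter being Fst and Kitl, where 12.4% and 10.9% of all genes were. Fst, at 7.27 in the ovary by the authors' deposited table, is also on the pre-granulosa marker list used here. The signals are therefore not limited to Sertoli cells.

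Markers of the cell types a gonad holds were read beside the hedgehog genes. Among 12 Sertoli cell markers 5 fell in XY-KO, with a median of -0.70, where 1.57% of all genes were lower. The summed derived level of the 12 was 848 CPM in XY-WT, 577 CPM in XY-KO and 476 CPM in XX-WT. Most of the ovary sum was Wt1 and Gata4, which are not limited to Sertoli cells, and the other 10 markers summed to 547, 248 and 43.3 CPM. The 5 were Sox9, Amh, Aard, Cst9 and Cbln4, and the whole list ran from -2.76 to 1.17 in the authors' deposited table. Sox9, at -2.76, is the deleted gene, so its fall was set by the design and is part of both sums. The fall of Dhh came beside falls of part of this list, Sox9 by design among them. The part of Sertoli cell number in the Dhh fall was not tested. On the receiving side, none of 9 fetal Leydig markers was called by limma in XY-KO, where 1.57% of all genes were lower and 0.699% higher. Of these 9 markers 0 had an unadjusted p under 0.05, where 2899 of all 15300 genes had one, and their median was -0.10. Their summed level was 764 CPM in XY-WT, 737 CPM in XY-KO and 62.6 CPM in XX-WT. The Leydig marker with the smallest adjusted p was Star, at -0.38 (adjusted p = 0.294) by the authors' deposited table.

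Of all genes 0.699% were higher and 1.57% lower in XY-KO against XY-WT. Of 9 interstitial progenitor markers 1 rose in XY-KO, Maf at 0.50 (adjusted p = 0.0344) by the authors' deposited table, and the median was 0.07. Their summed level was 1020 CPM in XY-WT and 1070 CPM in XY-KO, against 560 CPM in XX-WT. Peritubular myoid and smooth muscle markers (4 measured) had a median of -0.11 in XY-KO and none called by limma. Of the 4, 0 had an unadjusted p under 0.05, where 2899 of all 15300 genes had one. In XY-KO the smallest adjusted p of that list was for Myh11, at 0.28 (adjusted p = 0.490) by the authors' deposited table. Summed Leydig, progenitor and myoid markers in XY-KO were 0.965, 1.05 and 0.930 times those of XY-WT. Of the 4 myoid markers, Acta2 was lower in the ovary, Myh11 was higher (0.96, adjusted p = 0.00171, by the authors' deposited table) and 2 had no call. Which cells held the Hhip and Ptch1 RNA was not measured, and the part of cell number in their falls was not tested. These sums come without a test.

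Desert hedgehog is also made by Schwann cells and endothelial cells. None of 8 endothelial markers was called in XY-KO by limma, where 1.57% of all genes were lower and 0.699% higher. Of the 8, 1 had an unadjusted p under 0.05, where 2899 of all 15300 genes had one. The summed level of the 8 was 181 CPM in XY-WT and 175 CPM in XY-KO. The authors' deposited table gave Tek, the endothelial marker nearest to a call, 0.38 (adjusted p = 0.211). Of 9 Schwann cell and neural crest markers 5 were measured, and 2 of them, Sox10 and Erbb3, fell: the authors' deposited table gave -3.93 and -1.88. The 5 did not all move in the same direction. The summed level of the 5 was 92.7 CPM in XY-WT, 72.3 CPM in XY-KO and 40.1 CPM in XX-WT. Sox10 is also a relative of Sox9 that Sertoli cells can express. The part of Schwann cells in the Dhh level was not tested.

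For the other lists, the authors' deposited table of XY-KO against XY-WT placed the member with the smallest adjusted p at -2.49 for Lgr5 (pre-granulosa, the 1 of 8 that was called), -0.54 for Pou5f1 (germ cells), -2.47 for Ret (mesonephros), -0.11 for Mrc1 (macrophages) and -0.52 for Hba-a1 (red blood cells). None of the 6 germ cell, 5 mesonephric, 4 macrophage or 6 erythroid markers was called there by limma, where 1.57% of all genes were lower and 0.699% higher. Unadjusted p-values were under 0.05 for 1, 1, 0 and 1 of these lists' members, and for 2899 of all 15300 genes.

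**Figure D5:**
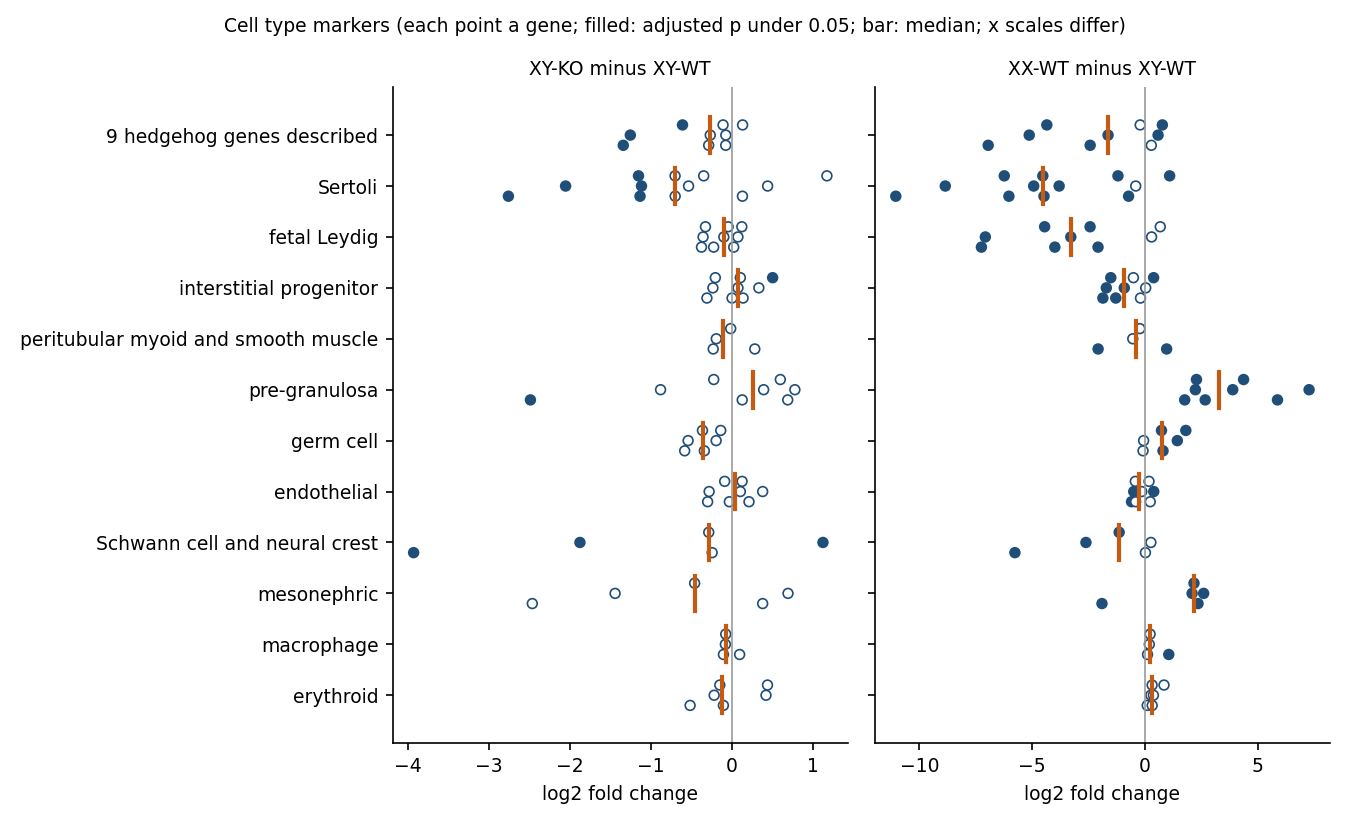
Log2 fold changes from the authors' deposited tables (x axis) of the 9 hedgehog genes and of 11 lists of cell type markers, 1 point a gene, filled where the adjusted p is under 0.05, with the median of each list as a bar. In the left panel the Sertoli list has a median of -0.70 and the fetal Leydig list one of -0.10 with no filled point, and in the right panel these lists have medians of -4.50 and -3.29. In the comparison of the left panel 1.57% of all genes were lower and 0.699% higher.

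The genes most like 4 of the hedgehog genes were found by the straight-line distance over the 2 log2 changes from the control testis, among genes of at least median mean expression with a standard name. With 2 values to a gene, which share the XY-WT samples, this is a description. Hhip lay closest to the Sertoli cell gene Aard (distance 0.23), which stood at -1.14 in XY-KO and -4.93 in the ovary in the authors' deposited table, and then to the cartilage collagen gene Col9a3 (0.92), Cyp26b1 (1.01), Dtna (1.03) and Star (1.11). Nearest to Ptch1 were Tacc1 (distance 0.20), Olfml3 (0.24), Enc1 (0.25), Acsbg1 (0.28) and Ppp1r16b (0.29). Gli1 lay closest to Star (distance 0.13), the cholesterol carrier of steroid synthesis, at -0.38 in XY-KO and -4.45 in the ovary in the authors' deposited table. Next came Inhba and the steroid enzyme gene Hsd3b1 (both 0.51), Spp1 (0.63) and Smoc2 (0.73). Dhh itself lies below that expression minimum, so the rule left out the genes of low expression most like it and named Prokr2 (distance 1.21), Cyp17a1 (1.30), Cyp11a1 (1.40), Adh1 (1.74) and Hhip (1.82). With no minimum, a choice made after seeing the data, the 5 nearest to Dhh were Defb19 (0.55), Sfrp4 (0.63) and the Sertoli cell genes Gdnf (0.64), Cst9 (0.75) and Ptgds (0.93). For Gli1, also below the minimum, Star stayed the nearest.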

How the data were processed

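RNA was amplified with NuGEN SPIA before paired-end sequencing, per the labels' protocols. The submitters' processing notes name limma 3.24.0, HTSeq 0.6.1p1, TopHat2 2.0.8, Trimmomatic 0.30 and the GRCm38 genome. Each of the 3 comparisons has a table that the authors deposited, with log2 fold changes, mean log2 expression, p-values and Benjamini-Hochberg adjusted p-values from limma, and the t and B scores. The log2 offset and strand setting are not given in the sources used here. Mean expression was read as log2 CPM, since its linear values sum to 978109.

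From the tables, SE was the log2 fold change divided by t, 95% intervals used 15.27 degrees of freedom, and group variances were solved from the 3 SEs. Group levels give each group equal weight. The midpoint contrast was adjusted over all 15300 genes. These steps were tested on simulated data in which the 3 groups had equal variance. Unequal group SEs, such as those of Dhh, were not simulated. Python 3.11.15, pandas 2.3.3 and scipy 1.17.1 were used. GENCODE M21 (GRCm38) gave positions and lengths, and RefSeq promoters are on GRCm38.p6.

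The 9 genes and all lists were chosen with earlier results of these data known. Named were the 9 genes, Sox9, the pathway genes called in XY-KO against XY-WT or among the 5 smallest adjusted p-values in each direction of the other comparisons, the 5 nearest genes of Dhh, Ptch1, Hhip and Gli1, and the marker with the smallest adjusted p in XY-KO of each list. Any other gene was named after its values were seen. Some listed genes are not reported here by name.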

Additional observations from a re-analysis of the deposited data

How the results depend on the processing

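The calls were repeated with a threshold of 0.01, a 2-fold limit, Bonferroni adjustment, adjustment over the 3 comparisons together, only genes of at least median expression, centring on the median gene, and the GC and length dependence removed. No called change between groups reversed direction. The 3 calls among the 9 genes in XY-KO against XY-WT became 2 with the threshold of 0.01, the 2-fold limit or Bonferroni adjustment, each losing Ptch1, and 2 among genes of at least median expression, where Dhh and Gli1 were not tested. Gas1 and Boc lost all 4 calls in the ovary comparisons with the 2-fold limit or Bonferroni adjustment. The 5 genes above the midpoint became 3 with the 2-fold limit, 3 among genes of at least median expression and 1, Hhip, with Bonferroni adjustment. Against a midpoint of linear CPM, a choice made after seeing the data, Dhh and Hhip turned to the ovary side, at -0.36 and -0.30 in log2. Of the 48 other pathway genes, the 0 called in XY-KO against XY-WT became 2 with joint adjustment, which called 547 of all genes lower and 375 higher. With the GC and length dependence removed 17 were again called in XX-WT against XY-WT, Gpc4 and Stk36 among them, which were not called otherwise. The 17 became 11 at 0.01, 9 with the 2-fold limit and 5 with Bonferroni adjustment. The 12 called in XY-KO against XX-WT became 6 with the 2-fold limit and 3 with Bonferroni adjustment. No paired analysis was possible because the tables used here hold no values of single samples, and for the same reason leaving out each replicate was not run. Depth per sample is unknown, which limits what can be said of Dhh, Gli1 and Shh in the ovary.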

Other observations

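Genes close to the 9 on the chromosome were read for comparison. Of 7 measured genes within 20 kb that overlap none of them, 0 were called by limma in XY-KO against XY-WT and 2, both higher, in XX-WT against XY-WT. Of all genes, 0.699% were higher and 1.57% lower in the first and 10.9% and 12.4% in the second, so neither count sets these neighbours apart. Next to Dhh, the histone methyltransferase gene Kmt2d was at -0.12 (adjusted p = 0.695) and Lmbr1l at 0.07 (adjusted p = 0.921) in XY-KO by the authors' deposited table. The 2 called in the ovary were Tspan33 near Smo, at 2.21 (adjusted p = 0.00627), and Cfap44 near Boc, with adjusted p = 0.00249 and also higher, both by the authors' deposited table and both low in XY-WT, at -0.98 and -0.27 in log2 CPM.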
